A study of Homo sapiens with 16 samples.

Results

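A set of 10 NF-κB target genes was followed in spheroids of 3 prostate cancer cell lines: the chemokines CXCL1, CXCL2, CXCL8 and CCL20, the cytokine LIF, the inhibitors NFKBIA and TNFAIP3, the survival genes BIRC3 and IER3, and the NF-κB subunit RELB. They were picked by gene name, and are 10 of the 62703 genes in the count table. LNCaP (enzalutamide-sensitive), 22Rv1 (enzalutamide-resistant) and PC3 (enzalutamide-insensitive) cells had received 25 pmol of a non-targeting siRNA pool (siCtrl) or of a pool against MED12 (siMED12), a subunit of the kinase module that joins the Mediator complex. All cells stayed in 2D for 3 days and then grew as spheroids on ultra-low attachment plastic for 4 days. Each siCtrl group had 3 libraries, as did LNCaP siMED12, while 22Rv1 siMED12 and PC3 siMED12 had 2 each, numbered 1 and 3. The series asked what MED12 does in spheroids of enzalutamide-sensitive and enzalutamide-resistant cells, and the lines are single cultures of established tumor cells with no stroma or immune cells added.

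NF-κB is a family of dimeric transcription factors that is held in the cytoplasm by inhibitor proteins such as IκBα, the product of NFKBIA. Inflammatory signals such as TNF or IL-1 lead to the destruction of the inhibitor, the dimer enters the nucleus, binds κB sites and switches on chemokines, survival genes and its own inhibitors, NFKBIA and TNFAIP3, which close a negative feedback loop. In prostate cancer cells, CXCL8 and its relatives are known as secreted products of androgen-independent lines.

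The libraries held 479118 to 993807 counts, so that 1 read was worth 1.05 to 2.07 CPM (counts per 1e6 counts after TMM scaling), the scale used for all levels below. Reads came from the 3′ end of each transcript, about 1 tag per molecule, and CPM were therefore not divided by length. The targeted gene, MED12, had 5 to 22 reads per library and was not called in any line. Its log2 difference between siMED12 and siCtrl was -0.50 (SE 0.46, adjusted p = 0.878) in LNCaP. It was -1.28 (SE 0.46, adjusted p = 0.175) in 22Rv1 and -0.22 (SE 0.43, adjusted p = 0.987) in PC3. With so few reads, the size of the knockdown is poorly measured here. The study itself reports a highly efficient knockdown in its spheroids, and at the mRNA and protein level in 2D cells. KLK3, an androgen-regulated marker, averaged 2470 CPM in LNCaP siCtrl, 28.9 in 22Rv1 siCtrl and 13.8 in PC3 siCtrl, whereas CAV1 averaged 533 CPM in PC3 siCtrl and 14.8 or less in the other siCtrl groups. The leukocyte marker PTPRC had no read in any library, and CD14, CD68 and LST1 had at most 1. Of the stromal and endothelial markers, COL1A1 averaged 77.7 CPM in PC3 siCtrl, 22.8 in LNCaP siCtrl and 4.77 in 22Rv1 siCtrl, and PECAM1 averaged 4.32 CPM in PC3 siCtrl and 0.557 or less in the other siCtrl groups. Their part in the results was not tested. One library stood apart: in 22Rv1 siMED12 replicate 3, a set of 33 genes restricted to PC3 summed to 4.52% of their PC3 siCtrl level (96 reads). In the other 10 LNCaP and 22Rv1 libraries the share was 0.21% to 0.974% (4 to 25 reads). The genes were picked for low means in the LNCaP and 22Rv1 siCtrl groups, which held those libraries low. The siMED12 libraries, free of that rule, were at 0.392% to 0.591% in LNCaP and at 0.974% in 22Rv1 replicate 1.

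To show what the genes share in sequence, the promoters of the 7 members with an entry in the RefSeq promoter table (GRCh38.p14) were searched over the 250 bases before the transcription start, on both strands, for the κB consensus and for the overlapping motif GGAANTTCC. The consensus lay in 6 of the 7 promoters and in 5.21% of all 35116 promoters. GGAANTTCC lay in 4 of the 7 and in 0.826% of all, and one or the other was present in 7 of 7 against 5.80% of all. CXCL8 had a match to GGAANTTCC only. The members are known NF-κB targets, so a high share of κB matches was tied to their choice, and these shares are descriptions. LIF, RELB and IER3 were not searched. In the stretches below, written 5′ to 3′ on the strand of the gene, capitals mark the matches, and they are shown because the same kind of site precedes genes whose levels turned out very different.
CXCL1, chr4:73869273-73869392, plus strand: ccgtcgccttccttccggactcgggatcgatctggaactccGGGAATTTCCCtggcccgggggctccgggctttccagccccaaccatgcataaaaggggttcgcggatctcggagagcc
CXCL2, chr4:74099197-74099315, minus strand: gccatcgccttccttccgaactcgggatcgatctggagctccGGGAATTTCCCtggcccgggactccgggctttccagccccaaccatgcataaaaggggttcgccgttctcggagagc
CXCL8, chr4:73740449-73740518, plus strand: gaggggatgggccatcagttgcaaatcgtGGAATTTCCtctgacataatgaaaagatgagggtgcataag
CCL20, chr2:227813722-227813821, plus strand: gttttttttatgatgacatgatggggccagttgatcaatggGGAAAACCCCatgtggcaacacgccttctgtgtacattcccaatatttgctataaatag
NFKBIA, chr14:35404750-35404869, minus strand: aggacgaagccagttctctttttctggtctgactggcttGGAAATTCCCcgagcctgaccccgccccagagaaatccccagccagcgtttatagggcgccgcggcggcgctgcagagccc
TNFAIP3, chr6:137867139-137867213, plus strand: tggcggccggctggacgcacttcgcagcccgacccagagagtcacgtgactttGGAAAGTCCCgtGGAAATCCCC
BIRC3, chr11:102317264-102317363, plus strand: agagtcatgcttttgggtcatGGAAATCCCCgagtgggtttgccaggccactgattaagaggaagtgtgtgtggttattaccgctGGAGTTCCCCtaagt
CXCL1 and CXCL2 carried the same marked site and shared an identical run of 42 bases within 120 bases of promoter, while the longest run that CXCL1 shared with CXCL8 was 9 bases.

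Only 6 of the 10 genes had enough reads to be tested (CXCL1, CXCL8, LIF, NFKBIA, IER3 and RELB). CXCL2, CCL20, TNFAIP3 and BIRC3 did not pass the filter on low counts. Of the 6, NFKBIA was over the cutoff of 13.1 CPM in every library, whereas the other 5 passed through the PC3 libraries, where they are high. Their difference between PC3 and the other lines was therefore built into which genes were tested, and the counts and medians over tested members are descriptions. A lower level of a transcript in a bulk spheroid can mean fewer cells that make it or less RNA per cell, which cannot be told apart here.

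**Figure D1:**
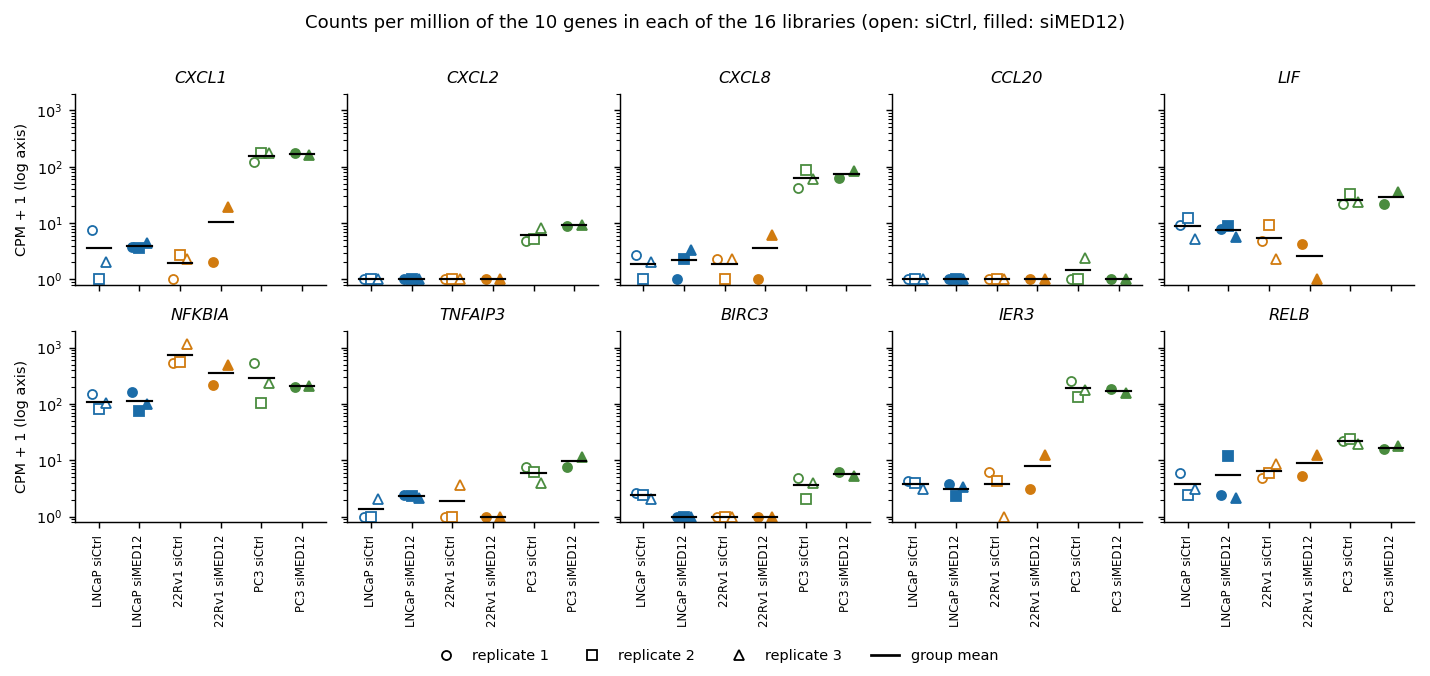
CPM + 1 of each of the 10 genes on a log axis in all 16 libraries, by line and treatment, with open symbols for siCtrl, filled symbols for siMED12, the symbol shape for the replicate number and a bar for the group mean. CXCL1, CXCL8 and IER3 sit between 41.3 and 257 CPM in PC3 and at 18.0 CPM or less elsewhere, NFKBIA is at 73.4 CPM or more in every library, and CXCL2, CCL20, TNFAIP3 and BIRC3 stay at or under 10.4 CPM.

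The neutrophil-attracting chemokines were PC3 transcripts. CXCL1 (chromosome 4, 73869393 to 73871308, plus strand, GRCh38) had 119, 178 and 172 CPM in PC3 siCtrl, 6.63, 0 and 1.06 CPM in LNCaP siCtrl and 0, 1.67 and 1.28 CPM in 22Rv1 siCtrl. Every PC3 library was above every LNCaP and 22Rv1 library. The PC3 siCtrl level, 156 ± 32.5 CPM (SD, n = 3), was 6.03 log2 units above LNCaP (SE 0.42, adjusted p = 1.31e-14). Without LNCaP siCtrl replicate 1, which held 4 of the 5 LNCaP siCtrl reads, this difference was 7.67. Against 22Rv1 siCtrl, with 2 reads in all, the ratio of summed levels was 169 (95% counting interval 46.4 to 1400, adjusted p = 8.59e-15). In each siCtrl comparison with PC3 these calls stand against a high background: 54.7% of all 10566 tested genes differed between PC3 and LNCaP, with 29.2% higher in PC3, and 54.9% between PC3 and 22Rv1, with 28.7% higher and 26.1% lower in PC3.

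CXCL8 (interleukin 8, chromosome 4, 73740519 to 73743716, plus strand) had 41.3, 88.3 and 59.2 CPM in PC3 siCtrl. It had 1 read in each of 2 LNCaP siCtrl libraries and 1 in each of 2 22Rv1 siCtrl libraries, and none in the remaining siCtrl library of each line. PC3 again lay clear of both lines. The ratio of summed siCtrl levels was 72.9 over LNCaP (95% counting interval 19.8 to 607, adjusted p = 3.60e-12) and 69.7 over 22Rv1 (19.0 to 580, adjusted p = 6.04e-12).

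CXCL2 (chromosome 4, 74097040 to 74099196, minus strand) gave 3, 4 and 5 reads in PC3 siCtrl and 6 and 4 in PC3 siMED12. It had no read in any of the 11 LNCaP and 22Rv1 libraries. Against a floor of 3 reads over the group, its siCtrl level in PC3 was at least 3.71-fold higher than in LNCaP and at least 3.55-fold higher than in 22Rv1. The last 500 bases of the CXCL1 and CXCL2 transcripts share an identical run of 77 bases, so that some 3′ reads could belong to either gene, and the split of counts between them is uncertain. At face value, CXCL1 stood at 157 CPM over the summed PC3 siCtrl libraries and CXCL2 at 4.96 CPM (95% Poisson interval 2.56 to 8.67), although both promoters held the same κB match. CCL20, which attracts CCR6-bearing lymphocytes and dendritic cells (chromosome 2, 227805739 to 227817564, plus strand), had a single read in all 16 libraries, in PC3 siCtrl replicate 3. No fold was computed for it.

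LIF, an interleukin-6 family cytokine (chromosome 22, 30240453 to 30246759, minus strand), was detected in all siCtrl libraries. It had 20.6, 31.5 and 23.1 CPM in PC3 siCtrl, 8.28, 11.5 and 4.24 CPM in LNCaP siCtrl and 3.90, 8.36 and 1.28 CPM in 22Rv1 siCtrl. PC3 did not overlap with the other lines, which overlapped with each other. The log2 difference was 1.73 between PC3 and LNCaP (SE 0.42, adjusted p = 0.000848) and 2.56 between PC3 and 22Rv1 (SE 0.49, adjusted p = 4.42e-05). The latter was 3.22 without 22Rv1 siCtrl replicate 2. 22Rv1 and LNCaP did not differ beyond their spread (log2 difference -0.83, 95% confidence interval -2.15 to 0.49, adjusted p = 0.318). The antisense genes LIF-AS1 and LIF-AS2 overlap LIF, and the strand setting of the counting was not given in the sources used here.

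NFKBIA (chromosome 14, 35401079 to 35404749, minus strand) was the exception among the members in its order of lines: 22Rv1 was highest, followed by PC3 and LNCaP. It had 521, 555 and 1150 CPM in 22Rv1 siCtrl, 534, 104 and 234 CPM in PC3 siCtrl and 147, 78.8 and 102 CPM in LNCaP siCtrl. The 22Rv1 and LNCaP libraries were far apart, while PC3 siCtrl replicate 1 reached the 22Rv1 range and PC3 siCtrl replicate 2 fell within the LNCaP range. Group means were 741 ± 352 CPM in 22Rv1, 291 ± 221 in PC3 and 109 ± 35.0 in LNCaP (SD, n = 3 each). The log2 difference between 22Rv1 and LNCaP was 2.78 (SE 0.37, adjusted p = 3.29e-07), in a comparison in which 43.2% of all tested genes were called and 1 of the 6 tested members was. PC3 exceeded LNCaP by 1.41 (SE 0.39, adjusted p = 0.00275), a call that was lost without PC3 siCtrl replicate 1 (0.61, adjusted p = 0.147) and with a robust prior (adjusted p = 0.0874). PC3 was below 22Rv1 (log2 difference -1.37, SE 0.33, adjusted p = 0.000792). This difference was -2.20 without PC3 siCtrl replicate 1, -0.97 without replicate 2 and -0.95 without 22Rv1 siCtrl replicate 3, and its adjusted p rose to 0.0555 with a robust prior.

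TNFAIP3, which encodes the ubiquitin-editing enzyme A20 (chromosome 6, 137867214 to 137883314, plus strand), had 5, 5 and 2 reads in PC3 siCtrl and 5 in each PC3 siMED12 library. In the 11 other libraries it had at most 2. Its summed siCtrl level was 11.1 times as high in PC3 as in LNCaP (1 read, 95% counting interval 1.65 to 476) and 5.32 times as high as in 22Rv1 (2 reads, 1.19 to 49.0). The antisense gene WAKMAR2 overlaps it. The inhibitors of the feedback loop thus stood at very unequal levels in the same PC3 siCtrl spheroids, 279 CPM for NFKBIA and 4.96 CPM for TNFAIP3 over the summed libraries.

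IER3, a stress-response gene that affects cell survival (chromosome 6, 30743199 to 30744548, minus strand), had 257, 130 and 176 CPM in PC3 siCtrl, a mean of 188 ± 64.0 CPM (SD, n = 3) that overlapped with that of CXCL1. It had 3.31, 2.86 and 2.12 CPM in LNCaP siCtrl and 5.21, 3.34 and 0 CPM in 22Rv1 siCtrl. No PC3 library came near those of the other lines. The log2 difference was 6.04 to LNCaP (SE 0.39, adjusted p = 4.61e-15) and 5.98 to 22Rv1 (SE 0.39, adjusted p = 7.09e-15). The difference to 22Rv1 was 6.84 without 22Rv1 siCtrl replicate 1 and 5.31 without replicate 3. The opposite-strand genes IER3-AS1 and HCG20 overlap IER3.

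BIRC3, which encodes the apoptosis inhibitor cIAP2 (chromosome 11, 102317484 to 102339403, plus strand), was barely detected. It had 3, 1 and 2 reads in PC3 siCtrl and 4 and 2 in PC3 siMED12. Each LNCaP siCtrl library held 1 read, and none was found in LNCaP siMED12 or in any 22Rv1 library. The ratio between PC3 and LNCaP siCtrl was 1.86 (95% counting interval 0.397 to 11.5), so that a difference was not detectable at this depth. An unnamed antisense gene overlaps BIRC3.

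RELB, the subunit that pairs with p52 in the non-canonical pathway (chromosome 19, 45001461 to 45038192, plus strand), had 20.6, 23.1 and 18.8 CPM in PC3 siCtrl, 3.90, 5.01 and 7.70 CPM in 22Rv1 siCtrl and 4.97, 1.43 and 2.12 CPM in LNCaP siCtrl. The 3 PC3 libraries were close to each other and above all others. The log2 difference was 2.90 to LNCaP (SE 0.55, adjusted p = 4.00e-05) and 1.88 to 22Rv1 (SE 0.47, adjusted p = 0.0011), whereas 22Rv1 and LNCaP did not differ beyond their spread (1.02, 95% confidence interval -0.52 to 2.56, adjusted p = 0.293). In all, 6 of 6 tested members were higher in PC3 than in LNCaP, beside 29.2% of all tested genes. Against 22Rv1 5 were higher and 1, NFKBIA, was lower, beside 28.7% and 26.1% of all. The members other than NFKBIA had passed the filter through PC3, and the NFKBIA call against LNCaP was lost without PC3 siCtrl replicate 1.

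Among the genes that passed the filter, in the fit of all 16 libraries without a replicate block, MED12 knockdown changed no tested member past the threshold in any line. With edgeR, 0 of 6 were called in LNCaP, where 0.416% of all tested genes were, 0 of 6 in 22Rv1 (1.84% of all genes) and 0 of 6 in PC3 (0% of all genes). DESeq2 and limma also called 0 in each line. DESeq2, however, gave no adjusted p for some members, such as LIF and RELB in LNCaP and RELB in 22Rv1. The edgeR test of all genes with at least 1 count called 2 members in 22Rv1, CXCL1 (adjusted p = 0.0408) and NFKBIA (adjusted p = 2.83e-09). At an unadjusted p under 0.05 there were 0 members in LNCaP, 2 in 22Rv1 (CXCL1 and NFKBIA) and 0 in PC3, beside 7.34%, 11.7% and 4.99% of all genes. The median log2 fold change of the tested members was 0.21 in LNCaP, 0.79 in 22Rv1 and -0.03 in PC3, and that of all genes was 0, 0.01 and -0.04. The 22Rv1 median turned to -0.38 without siMED12 replicate 3, the library with PC3-restricted reads, where 1 of 6 estimates was above 0. With a replicate block in edgeR, NFKBIA was called in 22Rv1 (adjusted p = 5.88e-07) and PC3 (adjusted p = 0.00816), and CXCL1 in 22Rv1 (adjusted p = 0.0411). The share of all genes called with the block, or in the test of all genes with at least 1 count, was not computed for any comparison. Whether these calls are particular to the members is therefore not known.

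**Figure D2:**
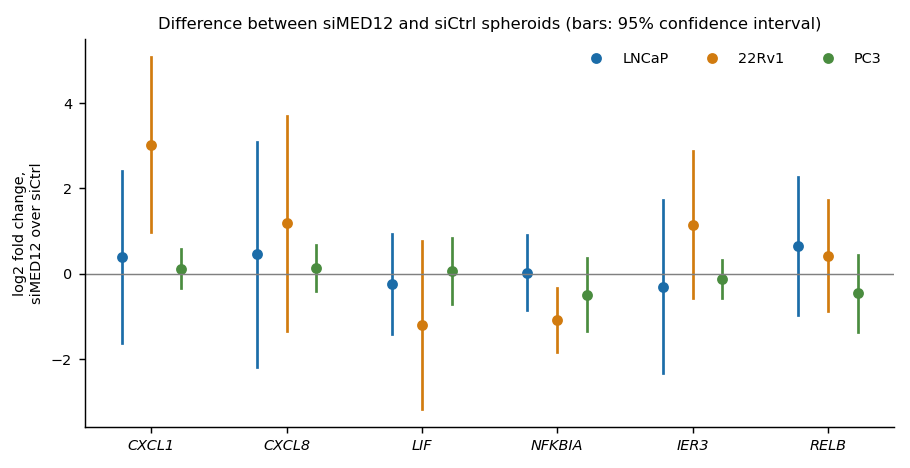
Log2 fold change between siMED12 and siCtrl spheroids for the 6 tested genes, with points for the estimate and bars for the 95% confidence interval, by line. The interval excludes 0 for CXCL1 and NFKBIA in 22Rv1, where neither adjusted p is below 0.05, and the intervals are narrowest for CXCL1, CXCL8 and IER3 in PC3.

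In PC3, where the members were best measured, CXCL1 and CXCL8 lay within the range of the controls. CXCL1 had 175 and 164 CPM in siMED12, between the lowest and highest siCtrl libraries, and the log2 fold change was 0.12 (95% confidence interval -0.33 to 0.58, adjusted p = 0.987). CXCL8 had 62.0 and 83.0 CPM, also inside the siCtrl range (0.14, -0.40 to 0.68, adjusted p = 0.987). A change of CXCL1 or CXCL8 by more than 1 log2 unit in either direction lay outside these intervals. IER3 had 182 and 158 CPM in siMED12 (-0.12, -0.56 to 0.32, adjusted p = 0.982) and LIF 21.1 and 35.3 CPM (0.07, -0.70 to 0.84, adjusted p = 1.00). RELB had 14.5 and 16.6 CPM in siMED12, both below all siCtrl libraries, with a log2 fold change of -0.45 (-1.36 to 0.45, adjusted p = 0.978). NFKBIA had 202 and 207 CPM, inside the siCtrl range (-0.49, -1.34 to 0.36, adjusted p = 0.978). With a replicate block its log2 fold change was -0.89 (adjusted p = 0.00816). Groups failed to overlap as for RELB for 20.7% of all tested genes in PC3, and for 1 of the 6 members. Among the genes under the filter on low counts, CXCL2 had 7.91 and 8.30 CPM in siMED12, above its 3.87, 4.21 and 7.22 CPM in siCtrl. TNFAIP3 had 6.59 and 10.4 CPM beside 6.45, 5.26 and 2.89 CPM, and BIRC3 had 5.28 and 4.15 CPM beside 3.87, 1.05 and 2.89 CPM. In all 3 the groups did not overlap, at 1 to 6 reads per library. How often this happens among genes under the filter was not computed. For TNFAIP3 the reads were 5 and 5 in siMED12 beside 5, 5 and 2 in siCtrl, so that only library size separated the groups. When all genes with at least 1 count were tested, the log2 fold changes of CXCL2, TNFAIP3 and BIRC3 were 0.69, 0.70 and 0.93 (adjusted p = 1.00 for each). Without PC3 siCtrl replicate 1, the estimates of CXCL1, CXCL8, LIF, IER3 and NFKBIA changed sign, to -0.04, -0.09, -0.05, 0.18 and 0.32.

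In LNCaP, NFKBIA had 159, 73.4 and 98.9 CPM in siMED12, overlapping with siCtrl, and its log2 fold change was 0.03 (95% confidence interval -0.85 to 0.91, adjusted p = 1.00). LIF had 6.99, 8.01 and 4.60 CPM (-0.23, -1.41 to 0.94, adjusted p = 0.981). RELB had 1.40, 10.7 and 1.15 CPM, and its log2 fold change of 0.65 (-0.96 to 2.26, adjusted p = 0.915) was -0.99 without siMED12 replicate 2, which held 8 of the 10 reads. CXCL1 gave 2, 2 and 3 reads, CXCL8 0, 1 and 2, and IER3 2, 1 and 2 in the LNCaP siMED12 libraries, too few to detect a change. All 6 tested members overlapped between the LNCaP groups, whereas 12.6% of all tested genes did not.

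In 22Rv1, the NFKBIA level was 214 and 494 CPM in siMED12, both below the 521, 555 and 1150 CPM of siCtrl. Means were 354 ± 198 (SD, n = 2) and 741 ± 352 CPM (SD, n = 3), and the log2 fold change was -1.08 (SE 0.37, 95% confidence interval -1.84 to -0.33, unadjusted p = 0.00638, adjusted p = 0.154). NFKBIA was the 1 member of 6 whose 22Rv1 groups did not overlap, as was the case for 26.6% of all tested genes. The estimate was -1.80 without siMED12 replicate 3, -0.61 without siMED12 replicate 1 and -0.63 without siCtrl replicate 3 (adjusted p = 0.547). Same-numbered siCtrl and siMED12 libraries stood at 521 and 214 CPM (replicate 1) and at 1150 and 494 CPM (replicate 3). With a replicate block the estimate was -1.24 (adjusted p = 5.88e-07). Without the block, the adjusted p was 0.759 with DESeq2 and 0.558 with a robust prior in edgeR. The labels do not say whether the numbers mark pairs.

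CXCL1 had 1 and 14 reads in the 22Rv1 siMED12 libraries, beside 0, 1 and 1 in siCtrl. The log2 fold change of 3.02 (SE 1.0, unadjusted p = 0.00501, adjusted p = 0.138) rested on siMED12 replicate 3: without it the estimate was 0.16 (adjusted p = 1.00), and without siMED12 replicate 1 it was 4.03 (adjusted p = 0.0143). This is the library with 4.52% of the PC3 level of PC3-restricted genes. That share of the PC3 level, plus 0.85% of the LNCaP level (from 2 reads of LNCaP-restricted genes), equals 5.52 reads of CXCL1 and 6.64 of IER3 (9 counted). It equals 2.23 reads of CXCL8 (4 counted) and 0.754 of RELB (9 counted). Such reads were subtracted in every library, with its own shares of the other lines, some of them estimated from very few reads. This left CXCL1 with 0 and 8 reads in siMED12 and 0, 1 and 0 in siCtrl. IER3 was left with 0 and 2 reads in siMED12 and 3, 2 and 0 in siCtrl. The log2 fold change of CXCL1 was then 2.98 (adjusted p = 0.33), while that of IER3 went from 1.15 (adjusted p = 0.645) to -0.87 (adjusted p = 0.85). Without the library, IER3 was at -0.37 and RELB at -0.39 in place of 0.43 (adjusted p = 0.855). How reads of PC3-restricted genes came into this library was not tested. CXCL8 had 0 reads in 22Rv1 siMED12 replicate 1, and LIF had 3 and 0 reads in the siMED12 libraries, beside 3, 5 and 1 in siCtrl.

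**Figure D3:**
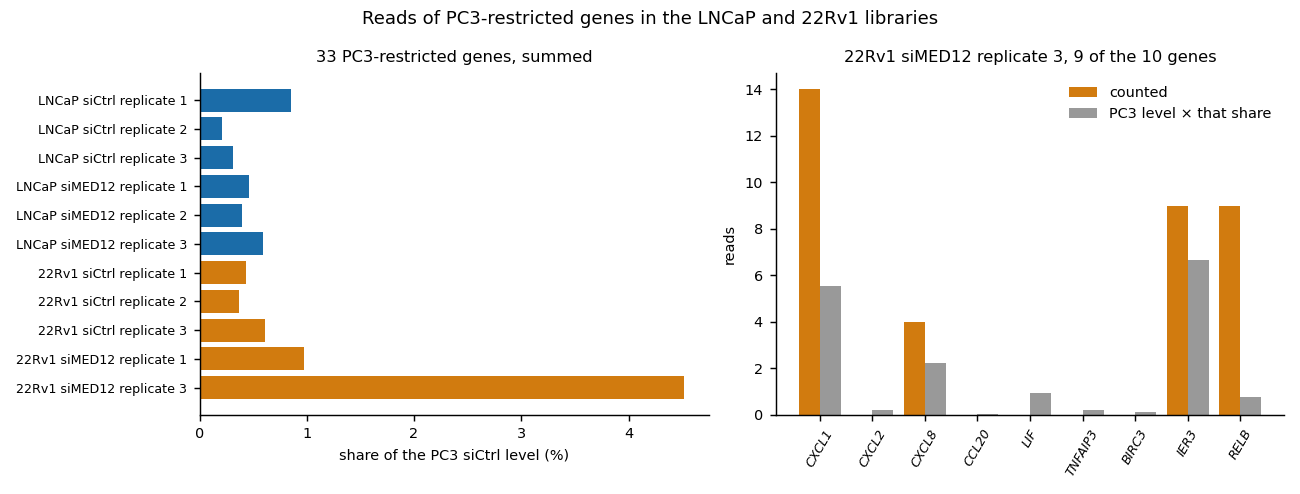
Left, summed level of 33 genes restricted to PC3 in each LNCaP and 22Rv1 library, as a percentage of their PC3 siCtrl level. Right, reads counted in 22Rv1 siMED12 replicate 3 for the members other than NFKBIA. Beside them are the reads that this share of the PC3 siCtrl level would give, with a 0.85% share of LNCaP added: 14 and 5.52 for CXCL1, 9 and 6.64 for IER3.

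The difference of the siMED12 effects between lines was tested as an interaction and passed the threshold for 0 of 6 members in each of 3 pairs of lines, in which 0.189% (22Rv1 and LNCaP), 0.0284% (PC3 and LNCaP) and 0.0946% (PC3 and 22Rv1) of all genes passed it. At an unadjusted p under 0.05 the members numbered 0, 0 and 1, beside 8.28%, 5.02% and 9.16% of all genes, and DESeq2 and limma called 0 in each pair. For NFKBIA, the effect in 22Rv1 was lower than in LNCaP by -1.11 log2 units (95% confidence interval -2.27 to 0.04, adjusted p = 0.627), and PC3 minus 22Rv1 was 0.59 (-0.54 to 1.72, adjusted p = 0.813). Without 22Rv1 siMED12 replicate 3 these values were -1.84 (adjusted p = 0.32) and 1.30 (adjusted p = 0.52), and without replicate 1 they were -0.64 and 0.10. Without 22Rv1 siCtrl replicate 3 they were -0.66 and 0.13. PC3 minus 22Rv1 was also 1.41 without PC3 siCtrl replicate 1 and 0.18 without PC3 siCtrl replicate 2. With a replicate block, NFKBIA was called for 22Rv1 minus LNCaP (-1.25, adjusted p = 0.00334). CXCL1 was the member with an unadjusted p under 0.05, for PC3 minus 22Rv1 (-2.90, 95% confidence interval -5.02 to -0.79, unadjusted p = 0.00856, adjusted p = 0.339). That value was -3.92 (adjusted p = 0.0405) without 22Rv1 siMED12 replicate 1 and -0.04 without replicate 3.

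NFKBIA varied between replicates far more than genes of its level. The SD of its log2 CPM around the group means was 0.723, against a median of 0.158 for the 500 genes nearest in level, 99.2% of which had a lower SD. IER3 (0.568, against a median of 0.268), CXCL1 (0.730, against 0.270) and CXCL8 (0.524, against 0.378) also had higher SDs. Outside PC3, however, IER3 had at most 9, CXCL1 at most 14 and CXCL8 at most 4 reads per library. The SD pooled all 6 groups, so their excess cannot be told apart from counting error in those libraries. In PC3, the replicates were not spread in the same direction for all members. PC3 siCtrl replicate 1 had the highest NFKBIA (534 CPM) and IER3 (257 CPM) and the lowest CXCL1 (119 CPM) and CXCL8 (41.3 CPM) of the 5 PC3 libraries. Replicate 2 of PC3 siCtrl had the lowest NFKBIA (104 CPM) and IER3 (130 CPM) and the highest CXCL1 (178 CPM) and CXCL8 (88.3 CPM).

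**Figure D4:**
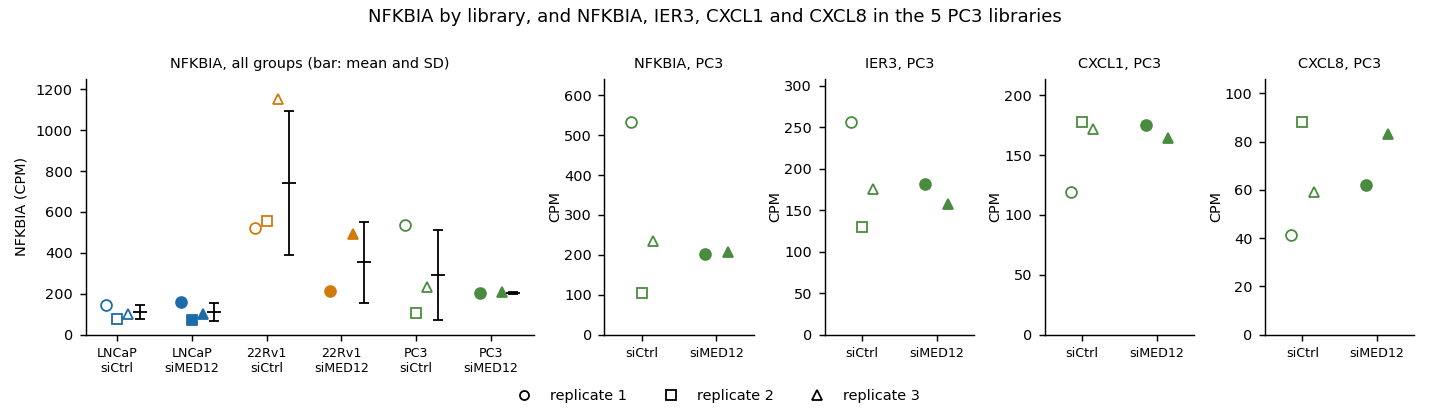
Left, NFKBIA in CPM in each of the 16 libraries with the group mean and SD. Right, NFKBIA, IER3, CXCL1 and CXCL8 in CPM in the 5 PC3 libraries, with the symbol shape for the replicate number and filled symbols for siMED12, in which siCtrl replicate 1 is highest for NFKBIA and IER3 and lowest for CXCL1 and CXCL8.

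The wider pathway was read from lists of genes outside the 10 members. Their siCtrl counts stand beside the share of all tested genes called in either direction. That share was 54.7% for PC3 against LNCaP, 54.9% for PC3 against 22Rv1 and 43.2% for 22Rv1 against LNCaP. Of 9 listed subunits and inhibitors, 7 were tested, 0 passed the threshold for an siMED12 effect in any line, and PC3 siCtrl differed from LNCaP by 2 higher and 0 lower. RELA, the main transactivating subunit, averaged 61.4 CPM in LNCaP, 66.3 in 22Rv1 and 69.1 in PC3 siCtrl. The higher genes were the inhibitor NFKBIE (log2 difference 1.29, SE 0.40, adjusted p = 0.00684) and NFKBIZ (1.37, SE 0.48, adjusted p = 0.0162). Against 22Rv1, NFKB1 (0.97, SE 0.31, adjusted p = 0.00897) and NFKBIE (1.07, SE 0.39, adjusted p = 0.0199) were higher in PC3, and BCL3 (-1.60, SE 0.35, adjusted p = 0.000219) and NFKB2 (-0.61, SE 0.26, adjusted p = 0.0427) were lower. In 22Rv1 against LNCaP, 1 of the 7, NFKBIZ, was higher (1.32, SE 0.50, adjusted p = 0.0311).

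Among 28 upstream signaling genes, 21 were tested and 0 were called for siMED12 in any line. In PC3 siCtrl 5 were higher and 3 lower than in LNCaP, and 6 were higher and 2 lower than in 22Rv1. IKBKB was among those lower than in LNCaP (log2 difference -1.44, SE 0.38, adjusted p = 0.00178). TBK1 was among those lower than in 22Rv1 (-1.61, SE 0.30, adjusted p = 2.93e-05). IKBKE, a kinase related to TBK1, averaged 21.1 CPM in PC3, 4.55 in 22Rv1 and 1.74 in LNCaP siCtrl. Its log2 difference was 3.47 to LNCaP (SE 0.52, adjusted p = 6.90e-07) and 2.16 to 22Rv1 (SE 0.43, adjusted p = 5.65e-05). IKBKE passed the filter on low counts through PC3 alone, so that its higher level there was built into its being tested. In 22Rv1 against LNCaP, 3 were higher and 3 lower, including TBK1 (1.35, SE 0.29, adjusted p = 0.000326) and the adaptor MYD88 (-1.11, SE 0.23, adjusted p = 0.000212).

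Of 17 listed receptors, 8 were tested and 0 were called for siMED12. TNFRSF12A, the TWEAK receptor, averaged 456 CPM in PC3 siCtrl, 25.6 in LNCaP and 25.1 in 22Rv1, with log2 differences of 4.14 (SE 0.20, adjusted p = 2.26e-17) and 4.15 (SE 0.21, adjusted p = 3.09e-17). CD40 averaged 30.5 CPM in PC3 siCtrl and 0.353 in LNCaP, and was at 0 in 22Rv1. TNFRSF11A, the receptor for RANKL, averaged 37.4, 2.21 and 0.991 CPM in PC3, LNCaP and 22Rv1. In all, 5 receptors were higher and 3 lower in PC3 than in LNCaP, and 4 were higher and 0 lower than in 22Rv1. CD40 and TNFRSF11A passed the filter on low counts through PC3 alone, and IL1R1 through LNCaP alone. Their differences were thus built into which genes were tested, and the counts are descriptions. IL1R1, the IL-1 receptor, was lower in PC3 than in LNCaP (-3.22, SE 0.60, adjusted p = 2.75e-05). CXCR1 and CXCR2, which bind CXCL8, had no read in any group, so that the ligand was counted in PC3 without reads of either receptor.

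Of 39 other NF-κB-responsive genes, 23 were tested, and PC3 siCtrl was higher for 18 and lower for 4 against LNCaP (median log2 difference 3.68, all genes 0.05) and higher for 17 and lower for 3 against 22Rv1 (median 3.08, all genes 0.01). As with the members, several of these genes passed the filter through PC3 alone, and the counts are descriptions. PLAU, which encodes urokinase, averaged 3790 CPM in PC3 siCtrl and 19.5 CPM in each of the other lines. PLAUR, its receptor, G0S2 and LCN2 were also among the genes with the smallest p in both comparisons. For 22Rv1 against LNCaP, 4 were higher and 5 lower. Among them was CX3CL1, a membrane-bound chemokine, at 49.3 CPM in 22Rv1 and 0.353 CPM in LNCaP (log2 difference 6.38, SE 0.72, adjusted p = 3.71e-09). CX3CL1 passed the filter through 22Rv1 alone. PLAU was the 1 listed gene called for siMED12, in 22Rv1 (2.00, SE 0.50, adjusted p = 0.029). It had 15 and 116 reads in siMED12, beside 11 to 16 in siCtrl, and the 116 reads were in replicate 3, where the 4.52% share of the PC3 level equals 134 reads. Without that library its log2 fold change was -0.30 (adjusted p = 0.906).

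**Figure D5:**
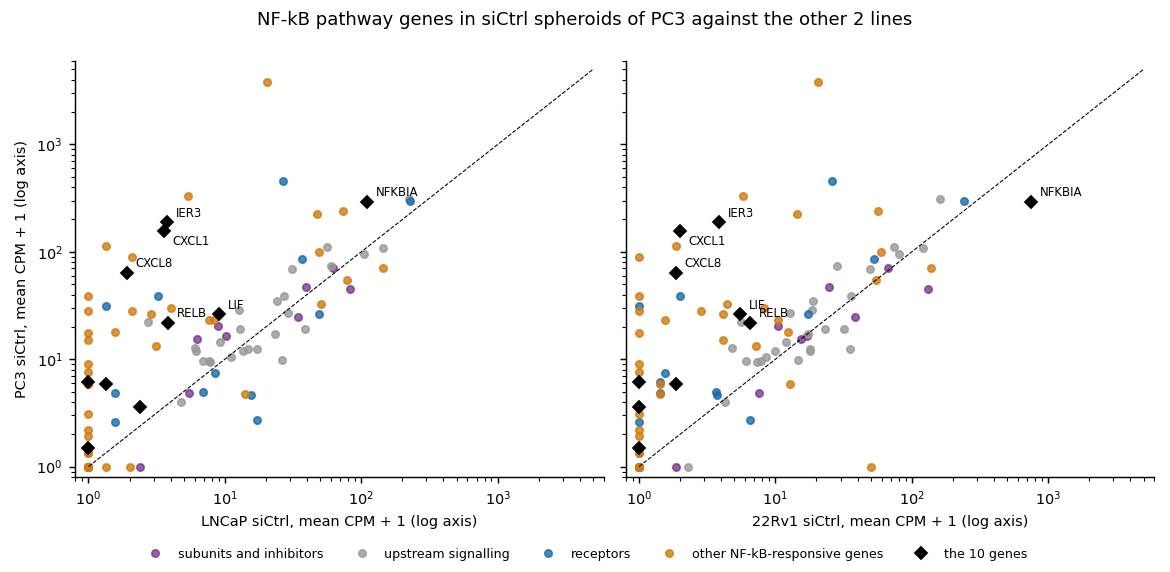
Mean CPM + 1 in PC3 siCtrl against LNCaP siCtrl (left) and 22Rv1 siCtrl (right) on log axes, 1 point per gene, for the 10 members (diamonds) and the 4 pathway lists, with a dashed line of equal levels. CXCL1, CXCL8 and IER3 lie far above the line in both panels, together with PLAU as the top point at 3790 CPM, and NFKBIA lies above the line against LNCaP and below it against 22Rv1.

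Genes most like the members across the 16 libraries were those that separate PC3 from the other lines. With the mean z score of the 6 tested members, log2 CPM correlated best for IGFBP6 (Pearson r = 0.994), FZD8 (0.992), PLTP (0.99), S100A14 (0.987) and KRT19 (0.985), out of 6716 genes that averaged 20 CPM or more. The closest to CXCL8 were KRT81 (0.992), KRT7 (0.99) and EMP1 (0.99), and to IER3 FGFBP1 (0.99), NOG (0.99) and ONECUT3 (0.989). S100A14 averaged 679 CPM in PC3 siCtrl, 2.72 in LNCaP and 3.69 in 22Rv1. The 16 points share 3 lines and fall into separate clusters, so these values say that the genes are high in the same 5 libraries.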

How the data were processed

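Total RNA of spheroids was made into 3′ tag libraries (BRB-seq). Per the labels, the authors used STARsolo and GRCh38.p13; the deposited gene counts were taken as they stood. A deposited table of log2 CPM was also given by the authors and was recomputed from the counts with edgeR and a prior count of 2 (largest difference 5e-14). Genes were tested with edgeR 4.0.16 (quasi-likelihood, TMM, filterByExpr with the 6 groups, 10566 genes, R 4.3.3), in 1 fit of all 16 libraries with a mean per group, Benjamini-Hochberg adjustment over all tested genes and a threshold of 0.05; limma 3.58.1 and DESeq2 1.42.0 were alternatives. The code was tested on simulated data. CPM were TMM-scaled, and ratios of low counts had exact conditional 95% intervals, which cover counting error only. Promoters came from RefSeq and gene positions from GENCODE. Line-restricted genes had a mean of at least 50 CPM in 1 siCtrl group and under 1 CPM in those of the other lines. From the lists, the 5 called genes with the smallest p per comparison could be named. The 10 genes and all lists were chosen with earlier results of these data known. The study's methods speak of biological replicates for its experiments in general, and the labels do not tie the library numbers to separate cultures, so p-values measure the spread between these libraries.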

Additional observations from a re-analysis of the deposited data

How the results depend on the processing

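Of 78 counts of members called under 9 other settings (2 of them, the robust and the legacy edgeR test, chosen after seeing the data), 73 lay within 1.5 times of the value given, and of 271 log2 fold changes 260 kept their direction and their side of the threshold. When all genes with at least 1 count were tested, 2 members were called in 22Rv1 (CXCL1, adjusted p = 0.0408, and NFKBIA, adjusted p = 2.83e-09) and 1 for the difference between 22Rv1 and LNCaP (NFKBIA, adjusted p = 0.00407). Same-numbered siCtrl and siMED12 libraries correlated at r = 0.0787 to 0.253 in their deviations from the group means, over 0.1 for 6 of 7 pairs. The numbers were not taken to pair the samples, because the lowest r was under the chosen limit of 0.1. All 7 siMED12 libraries correlated best with their own number. In 22Rv1 and PC3 the deviations of the 2 siMED12 libraries mirror each other, so these 7 matches are not independent. The calls that follow rest on this choice. With a replicate block, 2 members were called in 22Rv1 (CXCL1 3.58, adjusted p = 0.0411, and NFKBIA -1.24, adjusted p = 5.88e-07), 1 in PC3 (NFKBIA -0.89, adjusted p = 0.00816) and 1 for the difference between 22Rv1 and LNCaP (NFKBIA -1.25, adjusted p = 0.00334). Shares of all genes called under these settings were not computed. Leaving out 1 library at a time gave 0 to 1 members called in 22Rv1 and 0 to 1 for PC3 minus 22Rv1, 5 to 6 for PC3 against LNCaP, and the count given in the 6 other comparisons. Directions turned for the following values. NFKBIA in LNCaP went from 0.03 to -0.01 with limma and ranged from -0.30 to 0.29 without 1 library, LIF in LNCaP ranged from -0.62 to 0.15, RELB in LNCaP from -0.99 to 1.18 and RELB in 22Rv1 from -0.39 to 1.01. IER3 in 22Rv1 was -0.87 with the reads matching the shares of the other lines subtracted and ranged from -0.37 to 2.02. CXCL1 for 22Rv1 minus LNCaP ranged from -0.25 to 3.62. In PC3 the ranges were -0.04 to 0.24 for CXCL1, -0.09 to 0.50 for CXCL8, -0.27 to 0.46 for LIF, -0.92 to 0.32 for NFKBIA and -0.34 to 0.18 for IER3, and NFKBIA for PC3 minus LNCaP ranged from -0.95 to 0.28. The cause of these changes was not tested. Where 1 library was left in a group, it was assumed to vary like the other groups. At 1.05 to 2.07 CPM per read, members under 10 reads carry little information.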

Other observations

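The replicate spread of NFKBIA was shared by a gene outside the pathway lists. After the values had been seen, the deviations of NFKBIA from its group means were compared with those of 6719 genes that averaged 20 CPM or more, over 16 libraries with 10 residual degrees of freedom. The most alike was MRPS6, a mitochondrial ribosomal protein gene (Pearson r = 0.987), followed by PANK3 (0.953), S100A4 (0.933), PIM3 (0.921) and FBXO2 (0.911). MRPS6 had 1060, 240 and 545 CPM in PC3 siCtrl beside 534, 104 and 234 CPM of NFKBIA, 168, 162 and 303 CPM in 22Rv1 siCtrl beside 521, 555 and 1150 CPM, and 134, 68.7 and 82.7 CPM in LNCaP siCtrl beside 147, 78.8 and 102 CPM. In siMED12 it had 388 and 363 CPM in PC3, 128 and 266 CPM in 22Rv1 and 151, 73.4 and 79.3 CPM in LNCaP. The replicates were thus ordered alike in both genes in all groups but the 22Rv1 siCtrl pair of replicates 1 and 2 and PC3 siMED12, where values lay close together. Among the members, the same measure was 0.346 for CXCL1, 0.328 for IER3, 0.10 for RELB, -0.0472 for CXCL8 and -0.579 for LIF. These are descriptions of genes picked as the most alike, and the cause was not tested.

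CX3CL1 averaged 42.3 CPM in siMED12 and 49.3 CPM in siCtrl of 22Rv1, and at most 1.04 CPM in the groups of the other lines. IL1B, an inflammatory cytokine, averaged 27.2 CPM in PC3 siCtrl and 34.1 CPM in PC3 siMED12, and TNF had no read in any library.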
